A study of Mus musculus with 14 samples.

Results

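The glutamate receptor and postsynaptic scaffold genes described here are 30 genes, chosen by name from the 55401 genes of a table of normalized read counts from the mouse suprachiasmatic nucleus (SCN). They comprise 6 NMDA receptor genes (Grin1, Grin2a, Grin2b, Grin2c, Grin2d and Grin3a), 4 AMPA receptor genes (Gria1 to Gria4), 5 kainate receptor genes (Grik1 to Grik5), the delta receptor gene Grid1, 6 metabotropic receptor genes (Grm2, Grm3, Grm4, Grm5, Grm7 and Grm8) and 8 scaffold genes (Shank1, Shank2, Shank3, Homer1, Homer2, Homer3, Dlg4 and Dlgap1). All 30 were found in the table and all 30 had enough reads to be tested. Shank1 and Shank2 rose with scheduled exercise in wild-type SCN, and neither passed the test in SCN of mice without the VIP receptor VPAC2. The difference in this effect between genotypes passed in limma for neither gene. Both wild-type calls ended after a correction for transcript GC content and length. Grik4 was higher in the mutant than in the wild type without scheduled exercise, Shank1 was lower in the mutant under exercise, and Grin2c, Shank1 and Shank2 were lower in the mutant when both conditions were averaged. The other 26 genes passed none of the 6 comparisons in the main limma fit.

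Glutamate is the transmitter by which retinal ganglion cells carry light information to the SCN, and NMDA and AMPA receptors on SCN neurons receive it. NMDA receptors are built on an obligatory GluN1 subunit and pass calcium, AMPA receptors carry most fast excitatory current, and kainate receptors act on both sides of synapses. Metabotropic receptors signal through G proteins. Inside the postsynaptic density, PSD-95 binds NMDA receptors, SAPAP proteins link PSD-95 to Shank proteins, and Homer proteins link Shank proteins to group I metabotropic receptors.

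The mice were C57BL/6 wild types and Vipr2-/- mice on that background, adults of over 8 weeks and mostly male. All had 14 days of a light-dark cycle and were then kept in constant darkness. Without scheduled exercise (nSVE) they ran free and were killed at circadian time 14, whereas in scheduled voluntary exercise (SVE) a running wheel could be used for 6 h of each 24 h after 14 days of free run, and the mice were killed 2 h into wheel access. Total RNA was sequenced in 4 libraries of each wild-type group and 3 of each Vipr2-/- group, from SCN cut by laser out of stained sections. The labels name no driver that would limit the deletion to a tissue. Wild-type mice took 35 to 40 days to entrain to SVE but Vipr2-/- mice only 6 to 9. The design text places the wild-type SVE group at circadian time 24 but the other groups at 14. A kill time of 14 h is also recorded for every library, so the times given for the wild-type SVE group differ. In wild-type SCN exercise, its length and, if the design text holds, circadian time therefore cannot be told apart. The SVE groups of the genotypes differ in that length too, and by the design text in that time. Genotype cannot be told apart from these under SVE, averaged over conditions or in the difference of exercise effects between genotypes. SVE mice that did not entrain and Vipr2-/- mice that were arrhythmic under nSVE were left out by the authors, and the labels leave unsaid whether each library stands for a different mouse. The p-values therefore set group differences against the spread between these libraries, which may not be the spread between mice.

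The libraries held 17709080 to 48794679 reads. Vipr2 stood at 6247 to 10031 in wild-type and 90.9 to 244 in Vipr2-/- libraries, matching their labels. The 6 SCN neuron markers summed to 27968 to 33238 in wild-type and 16419 to 22076 in Vipr2-/- libraries, and were detected in each. Averaged over conditions, Avp (-1.37) and Vip (-0.89) were the 2 of these markers called, both lower in Vipr2-/- SCN, whereas Lhx1, Six6, Nms and Rora had log2 effects from -0.10 to 0.33. Markers of GABAergic neurons, the main neuron type of the SCN, summed to 47046 to 55920, and the 3 vesicular glutamate transporters to 134 to 724, with Slc17a8 at 0 in 1 or more libraries. Of the 18175 tested genes, 3.99% to 20.7% stood at 0 in Vipr2-/- libraries and 1.22% to 8.23% in wild-type libraries. In each group's RNA, fewer cells of a type and less RNA per cell cannot be told apart.

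Per kilobase of exon, and averaged over all 14 libraries, Gria1 had the highest level of the 30 genes at 1949 ± 259 (SD, n = 14) normalized read counts. Dlg4, which encodes PSD-95, followed at 1585 ± 177 and Grik5 at 1450 ± 211. Grin1 at 1051 ± 110 and Shank1 at 1033 ± 327 came next. At the other end stood Grin2a at 8.86 ± 4.16 and Grm8 at 8.50 ± 4.96. In this order the ranges over all 14 libraries overlapped for every pair of neighbours, and no step was tested within libraries. Per kilobase of the longest transcript instead, Dlg4 stood highest at 3319.6, before Grin1 at 2384 and Gria1 at 2124. Within classes and per kilobase of exon, Gria1 made up 81.5% of the AMPA receptor level per kilobase, Grik5 62.8% of the kainate level, and Grin1 45.2% and Grin2c 31.9% of the NMDA level. Grm3 led the metabotropic genes with 36.1%, and Dlg4 with 42% and Shank1 with 26.6% the scaffold genes. These shares depend on the length used. Grin1 and Grin2c stood at 1051 and 753 per kilobase of exon, but at 2384 and 775 per kilobase of the longest transcript. For Dlg4 and Shank1 the levels were 1585 and 1033 by exon, and 3319.6 and 1105 by longest transcript.

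Differences between groups were fitted by limma as 6 comparisons over all 18175 tested genes, and a gene is called where its Benjamini-Hochberg adjusted p is under 0.05. This is the main limma fit, and alternative fits are named where given. Exercise in wild-type SCN was asked by setting SVE against nSVE, which called 2 of the 30 genes, both higher, where 1.28% of all genes were called and 1.02% were called higher. In Vipr2-/- SCN the same comparison called 0 of 30 genes by limma, by edgeR and by DESeq2, against 0.116% of all genes, and 2 of the 30 had an unadjusted p under 0.05, against 13.8%. Whether the exercise effect differed between genotypes was tested as an interaction, which called 0 of the 30 genes by limma and by edgeR and 1, Shank1, by DESeq2, with 0.022% of all genes called by limma. An unadjusted p under 0.05 was found there for 7 of the 30, against 10.3% of all genes. Vipr2-/- and wild-type SCN were compared in each condition and over both. Under nSVE 1 of 30 genes was called, and it was higher, against 0.611% of all genes called and 0.127% called higher. Under SVE 1 of 30 was called, and it was lower, against 0.176% called and 0.127% called lower. Averaged over conditions 3 of 30 were called, all lower, against 1.18% called and 0.82% called lower. These comparisons share groups of libraries and are not independent of each other.

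**Figure D1:**
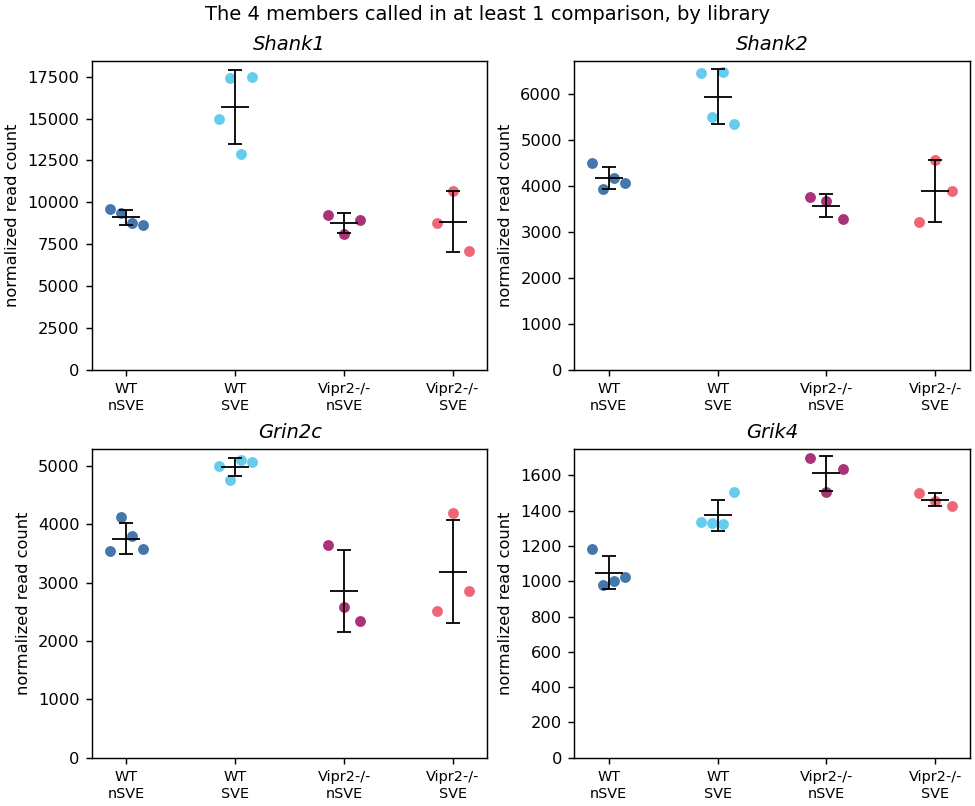
Normalized read counts (vertical axis) of the 4 genes called in at least 1 comparison, in each of the 14 libraries, by group (horizontal axis). Points are libraries, and the bars give the group mean and 1 SD. The wild-type SVE libraries of Shank1 lie between 12898 and 17470.0, above the highest library of the other groups at 10688, and Grik4 is lowest in wild-type nSVE.

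Among the NMDA receptor genes, Grin2c was the 1 gene called, in the averaged genotype comparison. It encodes GluN2C, a glutamate-binding subunit that gives NMDA receptors a weaker magnesium block. Grin2c (ENSMUSG00000020734.13) lies on the minus strand of GRCm38 chromosome 11, from 115249169 to 115267243. The 250 bases before its RefSeq start (GRCm38.p6, chr11:115267244-115267493, minus strand) are shown because Grin2c and Grik4 are the called genes with a promoter in the sequence table used here, with capitals marking GC boxes, GGGCGG on either strand.
Grin2c: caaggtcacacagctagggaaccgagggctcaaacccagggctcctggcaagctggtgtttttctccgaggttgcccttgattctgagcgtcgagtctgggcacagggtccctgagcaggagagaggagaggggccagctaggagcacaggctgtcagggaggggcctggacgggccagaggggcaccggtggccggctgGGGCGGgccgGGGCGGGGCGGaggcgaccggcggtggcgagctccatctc
The window holds 3 GC boxes, a pair of them overlapping by 1 base, and its GC content is 68.8%.

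Grin2c stood at 3536, 4122, 3794 and 3569 normalized read counts in the wild-type nSVE libraries and at 5006, 4756, 5104 and 5059.8 in wild-type SVE. In Vipr2-/- nSVE it stood at 3647, 2588 and 2335, and in Vipr2-/- SVE at 2516, 4185 and 2863. The wild-type SVE libraries were all above the libraries of the other groups, and 1 library of each Vipr2-/- group reached the wild-type nSVE range. Averaged over conditions, Grin2c was lower in Vipr2-/- SCN by a log2 fold change of -0.55 ± 0.116 (SE; limma adjusted p = 0.0333), and the call ended without any 1 of 11 of the 14 libraries (highest adjusted p = 0.0929) and in edgeR (adjusted p = 0.0571). The difference with exercise in wild type did not pass in the main limma fit (log2 fold change 0.41, adjusted p = 0.240). It passed in limma with array weights (adjusted p = 0.0150) and in the wild-type groups alone (adjusted p = 0.0107). Of all genes, those fits called 9.31% and 6.61%. After the GC and length correction it was 0.11 (adjusted p = 0.948). The genotype difference under SVE did not pass in the main limma fit (-0.68, adjusted p = 0.124) but passed in DESeq2 (adjusted p = 0.0144).

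The remaining NMDA receptor genes passed none of the comparisons in the main limma fit. Grin2b, which encodes the GluN2B subunit common in developing neurons, averaged 5459.8 ± 806 (n = 4) in wild-type nSVE and 3817 ± 583 (n = 4) in wild-type SVE. These groups did not overlap, with 4839.7 the lowest nSVE and 4469 the highest SVE library, but the log2 fold change of -0.52 missed the threshold in limma (adjusted p = 0.138). It passed in DESeq2 (adjusted p = 0.0330), with array weights (adjusted p = 0.0154) and in a fit of the wild-type groups alone (adjusted p = 0.0328), where 4%, 9.31% and 6.61% of all genes were called. These were the only 3 of 29 alternatives that called Grin2b there. After the GC and length correction the effect was -0.29 (limma adjusted p = 0.636). Grin1 was close to even in every group, from 9566 ± 733 in wild-type nSVE to 11178 ± 713 in wild-type SVE, and was called with exercise in wild type under array weights (adjusted p = 0.0432) and in no other fit. Grin2d, another glutamate-binding subunit gene, ran from 280.4 in Vipr2-/- nSVE library 3 to 1625 in a wild-type SVE library. Its averaged genotype effect was -0.68 (adjusted p = 0.211). Grin3a, whose GluN3A subunit lowers calcium entry, averaged 2438 ± 512 (n = 3) in Vipr2-/- nSVE against 1811 ± 312 (n = 4) in wild-type nSVE (0.42, adjusted p = 0.256).

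Grin2a, the gene of the GluN2A subunit found at mature synapses, varied widely between libraries. It stood at 301, 159, 209 and 237 in wild-type nSVE and at 126, 129, 128 and 152 in wild-type SVE. In Vipr2-/- nSVE it stood at 78.4, 113 and 3.37, the last from 4 reads, and in Vipr2-/- SVE at 245, 183 and 160.2. Both nSVE against SVE comparisons and both genotype comparisons had groups that did not overlap, yet none passed in limma over all libraries. Without Vipr2-/- nSVE library 2 the genotype comparison under nSVE called Grin2a. The log2 fold change was -2.70 (95% confidence interval -4.43 to -0.97, adjusted p = 0.164) for genotype under nSVE and 2.51 (0.65 to 4.36, adjusted p = 0.247) for exercise in Vipr2-/- SCN. These effects were smaller in DESeq2 (-1.81 and 1.60) and in edgeR (-1.83 and 1.61). Vipr2-/- nSVE library 3, with the value of 3.37, was also the library with most tested genes at 0, 20.7%, and the part of that in the Grin2a values was not tested. Relative to Grin2b in the same library, Grin2a lay between -10.34 and -5.77 on the log2 scale in Vipr2-/- nSVE and between -5.12 and -4.11 in the other groups.

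**Figure D2:**
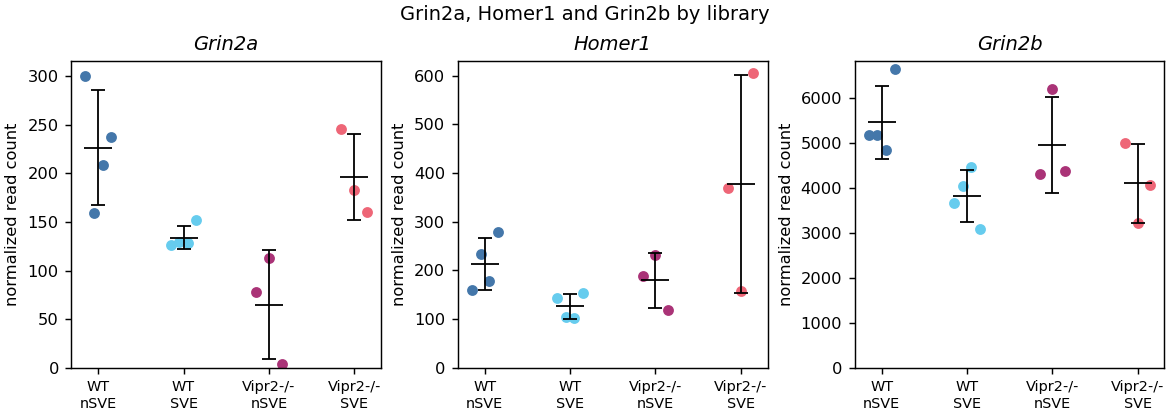
Normalized read counts (vertical axis) of Grin2a, Homer1 and Grin2b in each library, by group (horizontal axis), 3 genes whose wild-type groups did not overlap but which no comparison of the main limma fit called. Points are libraries, and bars give the group mean and 1 SD. Vipr2-/- nSVE holds the lowest Grin2a value, 3.37, and Vipr2-/- SVE the widest Homer1 spread, 157 to 605.

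AMPA receptor genes were called in none of the 6 comparisons of the main limma fit. Gria1, which encodes GluA1, a subunit whose insertion into synapses depends on activity, stood at 12689, 12103, 12558 and 13002 in wild-type nSVE. In wild-type SVE it stood at 9873, 10626, 9859.6 and 10554, below all libraries of the other groups, of which the lowest was a Vipr2-/- nSVE library at 10629. The log2 fold change with exercise in wild type was -0.30 ± 0.106 (SE, adjusted p = 0.210). In Vipr2-/- SCN it was -0.09 (adjusted p = 0.765). Gria2, whose edited GluA2 subunit keeps calcium out, averaged 1745 ± 405 and 1489 ± 270.0 in wild-type nSVE and SVE and 1998 ± 646 and 2298 ± 986 in the Vipr2-/- groups. The averaged genotype effects of all 4 AMPA receptor genes were above 0, with a median of 0.18 against -0.12 over all tested genes. After the GC and length correction of each library all 4 lay below 0, from -0.07 to -0.01, where the median of all tested genes was -0.15. None of the 4 had an unadjusted p under 0.05, as 17.8% of all genes did. Gria3 and Gria4, which encode the other two subunits, had exercise effects between -0.10 and 0.10 in both genotypes.

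Grik4 was the 1 kainate receptor gene called. It encodes GluK4, a high-affinity subunit that forms channels only together with GluK1 to GluK3. Grik4 (ENSMUSG00000032017.14) lies on the minus strand of GRCm38 chromosome 9, from 42518135 to 42944493, and its RefSeq promoter window (GRCm38.p6, chr9:42944372-42944621, minus strand) has a GC content of 69.6% and 1 GC box, in capitals. Of its 250 bases, 122 lie inside the gene as annotated in GENCODE, whose start is upstream of the RefSeq start.
Grik4: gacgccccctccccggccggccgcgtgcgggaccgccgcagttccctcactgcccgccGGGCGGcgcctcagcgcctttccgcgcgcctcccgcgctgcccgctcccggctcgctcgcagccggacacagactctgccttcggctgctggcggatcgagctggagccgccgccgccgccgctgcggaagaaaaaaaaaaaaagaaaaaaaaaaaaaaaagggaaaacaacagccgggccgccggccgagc
In wild-type nSVE Grik4 stood at 1185, 979, 1004 and 1024 normalized read counts, and in Vipr2-/- nSVE at 1698, 1505 and 1633. The lowest Vipr2-/- library was above the highest wild-type library. Grik4 was higher in Vipr2-/- nSVE by a log2 fold change of 0.62 ± 0.119 (SE; 1.54-fold, limma adjusted p = 0.0236). The call ended without any 1 of wild-type nSVE libraries 2, 3 and 4 or Vipr2-/- nSVE library 3 (highest adjusted p = 0.0821), after a correction for transcript GC content and length (0.42, adjusted p = 0.145) and in a fit of these groups alone (adjusted p = 0.0931).

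Under SVE the Grik4 groups came close. Wild-type SVE libraries stood at 1334, 1330.0, 1323 and 1505 and Vipr2-/- SVE libraries at 1500.0, 1454 and 1429, a log2 fold change of 0.09 (adjusted p = 0.762). Within wild type the exercise effect was 0.39 (adjusted p = 0.103), and within Vipr2-/- it was -0.14 (adjusted p = 0.639). The difference of these effects, -0.53 (95% confidence interval -0.89 to -0.17), did not pass over all genes (adjusted p = 0.387). Grik5, which encodes GluK5, averaged 8752 ± 537 in wild-type SVE against 6792 ± 183 in wild-type nSVE, without overlap and without passing in limma (0.36, adjusted p = 0.127), though DESeq2 called it. Grik1, Grik2 and Grik3, the genes of subunits that form channels on their own, passed no test. Their exercise effects lay between -0.25 and 0.17 in wild type and between -0.16 and 0.35 in Vipr2-/- SCN.

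Grid1 encodes GluD1, a receptor-like protein that organizes synapses through cerebellins. It averaged 1691 ± 179.5 in wild-type nSVE and 2322 ± 421 in Vipr2-/- nSVE, with the highest wild-type library at 1830.0 and the lowest Vipr2-/- library at 1933. The log2 fold change of 0.45 did not pass (adjusted p = 0.188), and under SVE it was -0.03 (adjusted p = 0.952).

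Metabotropic receptor genes passed none of the comparisons in the main limma fit. Grm5, which encodes mGluR5, a Gq-coupled receptor that binds Homer proteins, stood at 855, 698, 534 and 816 in wild-type nSVE and at 1086, 1189 and 1250.3 in Vipr2-/- nSVE. Under SVE it stood at 700.1, 742, 895 and 624 in wild type and at 1406, 891 and 815 in Vipr2-/- SCN, where the groups overlapped. The averaged genotype effect of 0.59 ± 0.151 (SE) lay just outside the threshold (adjusted p = 0.0702), and passed without Vipr2-/- SVE library 2 (adjusted p = 0.0372) and in DESeq2 (adjusted p = 0.0136). These were the only 2 of 28 alternatives that called Grm5 there. After the GC and length correction the effect was 0.30 (limma adjusted p = 0.316). Grm3, an inhibitory receptor that astrocytes also carry, had an averaged genotype effect of 0.43 (adjusted p = 0.236). The summed level of 6 astrocyte markers was 61721 to 78485 in wild-type and 77395 to 98905 in Vipr2-/- libraries. Aldoc was the 1 marker of them called averaged over conditions (0.45), whereas Gfap (-0.03), Aldh1l1 (0.07), Gja1 (0.14), Aqp4 (0.31) and Slc1a3 (0.34) did not pass. The part of these levels in the Grm3 and Grm5 values was not tested. Grm2, a presynaptic inhibitory receptor, ran from 74.4 to 382 in Vipr2-/- SVE and from 303 to 598 in Vipr2-/- nSVE (-1.20, adjusted p = 0.276), and was called between genotypes under SVE without Vipr2-/- SVE library 2. Grm4, Grm7 and Grm8, which encode the other inhibitory receptors of this set, had averaged genotype effects of -0.37, 0.08 and 0.88, and none passed.

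The scaffold genes held the calls with exercise. Shank1 and Shank2 encode large master scaffolds at the base of the postsynaptic density. Shank1 (ENSMUSG00000038738.15) lies on the plus strand of GRCm38 chromosome 7, from 44310253 to 44360572, and Shank2 (ENSMUSG00000037541.22) on the same strand from 144001928 to 144424494. Shank1 stood at 9587, 9372, 8767 and 8670.0 normalized read counts in wild-type nSVE and at 14962, 17432, 12898 and 17470.0 in wild-type SVE. In Vipr2-/- nSVE it stood at 9248, 8125 and 8958, and in Vipr2-/- SVE at 8748, 10688 and 7067. The wild-type SVE libraries were all higher than any other library, and the other 3 groups overlapped.

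In wild-type SCN Shank1 rose with exercise by a log2 fold change of 0.78 ± 0.124 (SE; 1.71-fold, limma adjusted p = 0.0105), and the call held without any 1 of the 14 libraries (highest adjusted p = 0.0486). In Vipr2-/- SCN the effect was -0.01 (95% confidence interval -0.31 to 0.30, adjusted p = 0.993). The difference between these effects was -0.79 (-1.19 to -0.38), which missed the threshold over all genes in limma (adjusted p = 0.293) and passed in DESeq2 (adjusted p = 0.0107). Under SVE Shank1 was lower in Vipr2-/- than in wild-type SCN by -0.84 ± 0.134 (SE, limma adjusted p = 0.0162). That call ended without any 1 of wild-type SVE libraries 2 and 4 and Vipr2-/- SVE libraries 1 and 3 (highest adjusted p = 0.130), and in a fit of the SVE groups alone (adjusted p = 0.134). Under nSVE the genotypes differed by -0.05 (-0.34 to 0.23, adjusted p = 0.888), and averaged over conditions Shank1 was lower by -0.45 ± 0.0947 (SE, adjusted p = 0.0343). Without any 1 of 10 of the 14 libraries the averaged call ended (highest adjusted p = 0.0820).

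Shank2 stood at 4493, 3937, 4157 and 4056 in wild-type nSVE and at 6454, 5484, 6465 and 5348 in wild-type SVE. It stood at 3753, 3662 and 3280.3 in Vipr2-/- nSVE and at 3212, 4551 and 3891 in Vipr2-/- SVE. Again the wild-type SVE libraries lay above all others. The rise in wild type was 0.51 ± 0.112 on the log2 scale (SE; 1.42-fold, limma adjusted p = 0.0358), and leaving out each of the 8 wild-type libraries in turn ended the call every time (highest adjusted p = 0.126). In Vipr2-/- SCN the effect was 0.11 (-0.16 to 0.39, adjusted p = 0.713), and the difference between genotypes was -0.40 (-0.76 to -0.03, adjusted p = 0.451). Averaged over conditions Shank2 was lower in Vipr2-/- SCN by -0.42 ± 0.0853 (SE, adjusted p = 0.0266), a call that ended without any 1 of 6 of the 14 libraries (highest adjusted p = 0.0701). Under SVE alone it was lower by -0.62 without passing (limma adjusted p = 0.0559), and DESeq2 called it there.

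Shank3, the gene of the third Shank protein, averaged 6101 ± 413 in wild-type SVE against 4781 ± 527 in wild-type nSVE (0.36, adjusted p = 0.175), and DESeq2 called it lower in Vipr2-/- SCN under SVE and averaged. Its wild-type SVE libraries, too, were all above those of the other groups, as was the case for 4 of the 30 genes and 1.41% of all tested genes. The reverse, all wild-type SVE libraries below the rest, held for 1 of 30, Gria1, and 0.517% of all genes. Shank1 exceeded Shank3 by 1.21 to 1.45 on the log2 scale in wild-type SVE libraries and by 0.83 to 1.02 in wild-type nSVE. The Shank1 to Shank3 difference was 0.83 to 1.01 in Vipr2-/- SVE and 0.74 to 1.30 in Vipr2-/- nSVE, which overlapped the wild-type SVE range. Shank2 relative to Shank3 overlapped across all 4 groups.

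The remaining scaffold genes passed none of the limma comparisons over all libraries. Dlg4 averaged 22825 ± 1643 in wild-type SVE against 19484 ± 1154 in wild-type nSVE (0.23, adjusted p = 0.404), and Dlgap1, the gene of SAPAP1, had effects between -0.07 and 0.02 in all 6 comparisons. Homer1, whose short form is induced by neuronal activity, stood at 161, 234, 179 and 279.8 in wild-type nSVE and at 143, 105, 103 and 154 in wild-type SVE. In Vipr2-/- SVE it stood at 369, 157 and 605, above each wild-type SVE library, but the log2 fold change of 1.39 (95% confidence interval 0.43 to 2.35) did not pass in limma (adjusted p = 0.198) or edgeR (adjusted p = 0.190). Without Vipr2-/- SVE library 2 it was called, as were 6.12% of all genes. The table gives 1 value per gene, so the short and long forms of Homer1 were not separated. Homer2 averaged 1015 to 1105 in the 4 groups. Homer3 was low, at 40 to 155, and 25.4% of its exon bases overlap Ddx49 on the opposite strand. Whether counting used strand is not given in the sources used here, so reads of Homer3 and Ddx49 may be mixed.

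**Figure D3:**
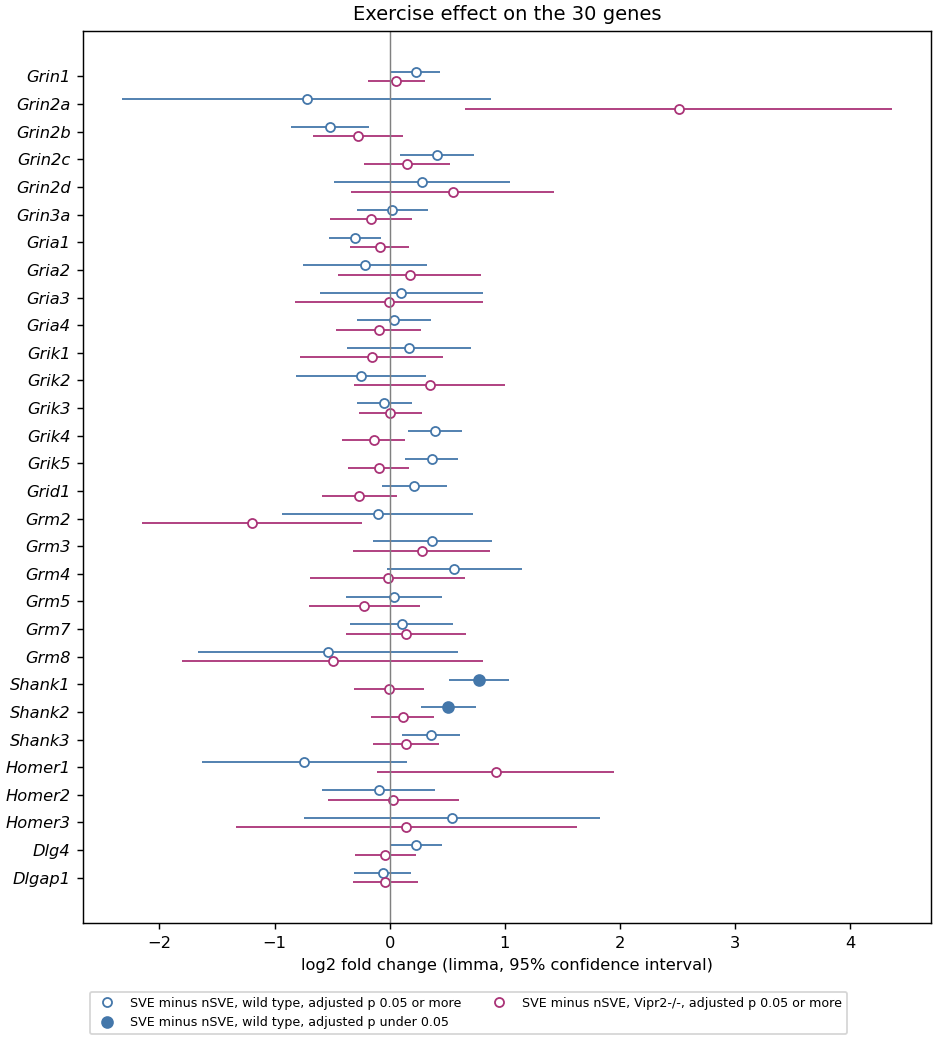
Effect of exercise on each of the 30 genes, as the limma log2 fold change of SVE minus nSVE (horizontal axis) with its 95% confidence interval, in wild-type and in Vipr2-/- SCN, with genes on the vertical axis. Filled points mark an adjusted p under 0.05, which holds for Shank1 (0.78) and Shank2 (0.51) in wild type and for no gene in Vipr2-/- SCN.

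Over the 30 genes, the median effect of exercise in wild type was 0.10 against 0.03 for all tested genes, with 19 genes above 0 and 11 below. In 11 of the 30 genes (36.7%) the wild-type SVE and nSVE libraries did not overlap, against 14.7% of all tested genes. Of these, Grin2c, Grik4, Grik5, Shank1, Shank2, Shank3 and Dlg4 were higher under SVE, and Grin2a, Grin2b, Gria1 and Homer1 were lower. In Vipr2-/- SCN the median was -0.01 against 0.04, and 2 of 30 genes (6.67%) did not overlap, against 9.99% of all genes. These were Grin2a, which was higher under SVE, and Grik4, which was lower.

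Between genotypes under nSVE the median of the 30 genes was 0.08 against -0.10 for all tested genes, and after the GC and length correction it was -0.12 against -0.15. In 6 of 30 genes (20%) the groups did not overlap, against 11.2% of all genes, with Grik4, Grid1, Grm5 and Grm8 higher and Grin2a and Shank2 lower in Vipr2-/- SCN. Under SVE the median was 0.02 against -0.10 for all genes, -0.01 against -0.12 with TMM scaling, and -0.18 against -0.12 after the GC and length correction. Here 9 of 30 genes (30%) did not overlap, against 14.1%, with Grin2a, Gria1, Grik2 and Homer1 higher and Grin2c, Grm4, Shank1, Shank2 and Shank3 lower.

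**Figure D4:**
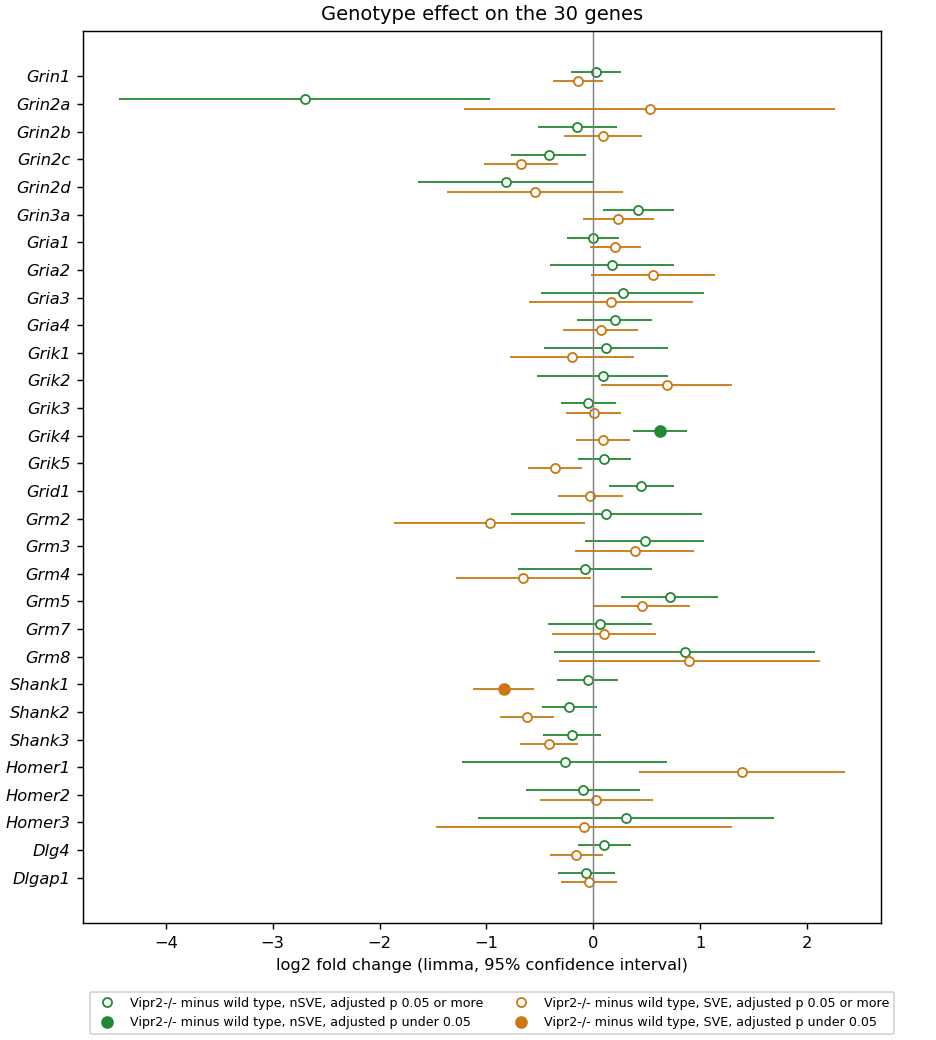
Effect of genotype on each of the 30 genes, as the limma log2 fold change of Vipr2-/- minus wild type (horizontal axis) with its 95% confidence interval, under nSVE and under SVE, with genes on the vertical axis. Filled points mark an adjusted p under 0.05, which holds for Grik4 under nSVE (0.62) and Shank1 under SVE (-0.84).

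A further 57 genes of glutamate signalling, covering auxiliary subunits, other scaffold proteins, transporters and remaining receptors, were read beside the 30, and 55 of them were tested. Exercise in wild-type SCN called 3 of the 55, all higher. Shisa7, an auxiliary subunit gene, averaged 3967 ± 283 in wild-type nSVE and 6224 ± 639 in wild-type SVE (log2 fold change 0.65, adjusted p = 0.0352). Dlgap4, a relative of Dlgap1, averaged 7404 ± 275 and 9579 ± 338 (0.37, adjusted p = 0.0252). Cnih2, which encodes an AMPA receptor partner, averaged 4828 ± 964 and 7353 ± 704 (0.62, adjusted p = 0.0491). Their wild-type groups did not overlap. The Cnih2 call ended in edgeR (adjusted p = 0.0629) and without any 1 of 10 of the 14 libraries (highest adjusted p = 0.201). Shisa7 and Dlgap4 passed in edgeR, and leaving out each of the 8 wild-type libraries in turn ended either call (highest adjusted p = 0.152 and 0.118). In the other 5 comparisons limma and edgeR called 0 of the 55 genes, with unadjusted p under 0.05 for 4 to 14 of them (7.27% to 25.5%, against 10.3% to 17.8% of all genes). DESeq2 called 0 to 7 of them there, and 0.963% to 4.54% of all genes. In Vipr2-/- SCN the exercise effects of Shisa7, Dlgap4 and Cnih2 were 0.32, 0.09 and -0.04. The vesicular glutamate transporter genes were low, and Grin3b and Grm6 were listed at 0 in all libraries.

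Transcript GC content moved with the exercise effect in wild type. All 7 of the 30 genes with a GC content over 60% (Grik5, Grin2c, Grin2d, Grm4, Homer3, Shank1 and Shank3) had effects above 0, with a median of 0.41, although Grin2d changed sign in 3 of 29 alternatives. Over all 830 tested genes of that GC content the median was 0.35, and 81.0% lay above 0. Of the 9 genes under 45%, 3 lay above 0. After correcting each library for a trend in GC content and length, Shank1 had an effect of 0.56 (adjusted p = 0.0758), Shank2 0.43 (adjusted p = 0.283) and Grin2d -0.03, so that neither call remained. The calls of Shisa7 (0.49, adjusted p = 0.130), Cnih2 (0.26, adjusted p = 0.543) and Dlgap4 (0.12, adjusted p = 0.744) also ended there.

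In the genotype comparison under SVE the same 7 genes lay below 0, with a median of -0.55 against -0.45 for all genes over 60% GC, although Homer3 (-0.09) changed sign in 9 of 29 alternatives and Grin2d in 1. The corrected Shank1 effect was -0.81 and passed (adjusted p = 0.0313). Under nSVE its corrected genotype effect was -0.43 (limma adjusted p = 0.137), against -0.05 uncorrected. The corrected difference of its exercise effects between genotypes was -0.38 (limma adjusted p = 0.662), against -0.79 uncorrected. Averaged over conditions, the corrected effects of Shank1 (-0.62, adjusted p = 0.00396), Shank2 (-0.64, adjusted p = 0.0116) and Grin2c (-0.60, adjusted p = 0.0179) passed, and Shank3 passed there too (-0.45, adjusted p = 0.0426).

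**Figure D5:**
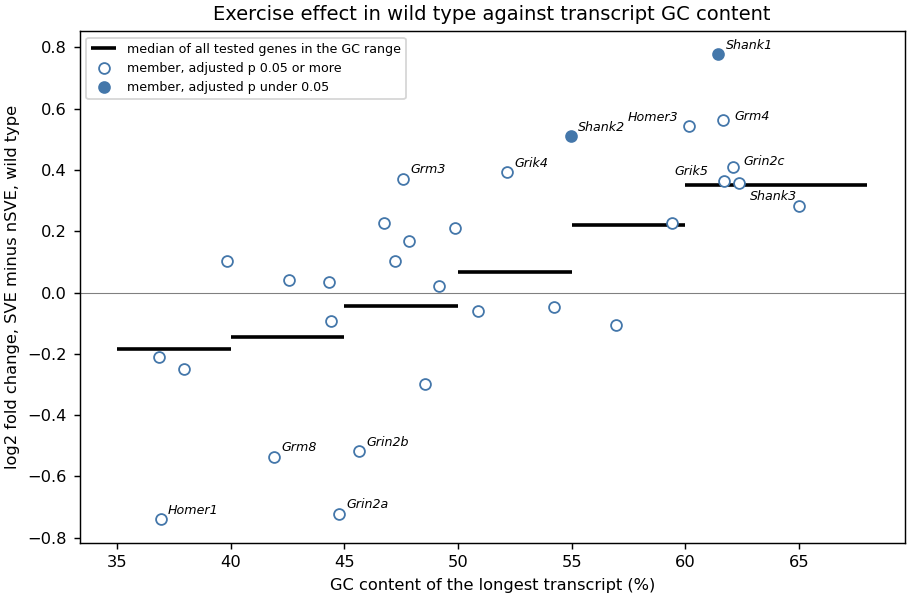
Exercise effect in wild-type SCN (limma log2 fold change, vertical axis) against GC content of the longest transcript in percent (horizontal axis) for the 30 genes. Black lines give the median of all tested genes in each GC range, the outer lines standing for all genes under 40% and over 60%. Genes of high GC content lie higher, and Shank1 (0.78) and Shank2 (0.51), the filled points, lie above the line of their range.

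Other measures moved with exercise in wild type as well. An rRNA-related gene, CT010467.1, ranged from 4.80% to 21.8% of a library's reads under nSVE and from 1.33% to 12.5% under SVE in wild type. With its log2 share as a covariate, chosen after seeing the data, the Shank1 effect of 0.78 (adjusted p = 0.165) and the Shank2 effect of 0.51 (adjusted p = 0.317) no longer passed. Of all genes, 0.0165% were called in that fit, against 1.28% without the covariate. The 6 oligodendrocyte markers summed to 69165 to 94897 in wild-type nSVE and 44136 to 66759 in wild-type SVE, and 6 markers of neurons in general to 67564 to 71070 and 71326 to 78674. The 3 GABAergic markers summed to 47046 to 49228 and 51169 to 55920, and all markers of these lists were detected in every library. The part of these marker levels in the Shank1 and Shank2 values was not tested.

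The share of tested genes at 0 was above the wild-type range in 5 of the 6 Vipr2-/- libraries. With that share as a covariate, the genotype calls of Grik4 under nSVE (0.60, adjusted p = 0.226) and of Shank1 under SVE (-0.66, adjusted p = 0.480) ended, as did the averaged calls of Grin2c (adjusted p = 0.785), Shank1 (adjusted p = 0.774) and Shank2 (adjusted p = 0.723). With that covariate the percentage of all genes called fell from 0.611% to 0.088% under nSVE. It fell from 0.176% to 0.033% under SVE and from 1.18% to 0.066% averaged. The rise of Shank1 with exercise in wild type passed there (0.68, adjusted p = 0.0350), and that of Shank2 did not (0.45, adjusted p = 0.119). For exercise in wild type, 0.413% of all genes were called there, against 1.28% without the covariate. Without library 3 of each Vipr2-/- group, which had most genes at 0, Grik4 passed under nSVE (adjusted p = 0.0342), whereas Shank1 under SVE (adjusted p = 0.0630) and the averaged effects of Grin2c (adjusted p = 0.0719), Shank1 (adjusted p = 0.0544) and Shank2 (adjusted p = 0.0522) did not.

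RefSeq promoter sequences were available for 19 of the 30 genes, with 27 promoters in all. In the 250 bases before the start, read on both strands, the E-box CACGTG, at which clock factors can bind, was found in 2 of the 27, of Grin1 and Dlgap1, and in 6.02% of all 32851 promoters. The cAMP response element TGACGTCA was found in 0 of 27 and 1.55% of all, its half-site TGACG in 4, of Dlg4, Grin1, Grm8 and Homer1, and 17.8% of all. The D-box TTATGTAA was found in 0 of 27 and 0.819% of all, and the GC box in 13 of 27 and 32.7% of all. The full element contains the half-site. These matches describe letters in the window and not binding.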

How the data were processed

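The file holds 1 signal value per gene and library, which the authors made by normalizing gene counts with DESeq2, per the submitters' processing notes. Those notes and the design text name Trimmomatic for trimming, FastQC, HISAT2 for alignment and StringTie for counting; versions are not given in the sources used here. The design text names GRCm38 and the notes GRCm39. Of 55401 identifiers, 54349 are in GENCODE M21 (GRCm38), all with that annotation's coordinates, and GC content and exon lengths come from there. Dividing by the value of 1 read gave whole reads, to within 0.001 reads, for 100% of values. On these reads edgeR called 180 and DESeq2 727 genes with exercise in wild type, against 233 by limma.

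Tested genes (18175) reached a value of 10 in 3 or more libraries. Their log2 values, with a pseudocount of 1, were fitted in limma 3.58.1 under R 4.3.3, using the mean-variance trend and 1 mean for each group of the 14 libraries. Moderated two-sided tests were adjusted by Benjamini-Hochberg within each of 6 comparisons. Fold changes of low genes depend on this scale, in either direction. For Grin2a the genotype effect under nSVE was -2.70 in limma and -1.81 in DESeq2. For Homer1 the genotype effect under SVE was 1.39 in limma and 1.58 in DESeq2.

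The 30 genes, the 57 further genes and the marker lists were chosen with earlier results of these data known. All 30 are named, in full those called in a comparison and the gene of each class with the smallest p; of the further genes, every called one; 1 gene of the chosen list is not reported here and is left out of its counts. Singled out after their values were seen were Grin2a, Grin2b, Homer1, Shank3, Grin2d, Grin3a, Grik5, Gria2, Grm2 and Grm3.

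As alternatives, the pseudocount was set to 0.5 or 10, the filter dropped or raised to 50, and TMM scaling, edgeR 4.0.16, DESeq2 1.42.0 or array weights used. Further fits took the share of genes at 0 as a covariate, corrected for GC content and length (18152 genes), blocked on replicate number, used only the groups compared, or left out each library. The fits were checked on simulated data.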

Additional observations from a re-analysis of the deposited data

Results flagged for a closer look

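In groups of 4 libraries, a single library stood far from the others for 5 of the 60 combinations of gene and wild-type group examined; chance flags about 1 in 20 groups. Grm3 was at 685.6 in wild-type nSVE library 1 against 396.9 to 428.6 in the others. Gria2 was at 1140 in wild-type nSVE library 2 against 1917 to 2000.0, and Gria4 in the same library at 1868 against 1659 to 1680.3. In wild-type SVE library 4, Grik4 was at 1505 against 1323 to 1334, and Grin2a at 152.1 against 125.8 to 129.2. No Vipr2-/- group was examined this way, since each holds 3 libraries.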

How the results depend on the processing

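Each comparison was refitted under the alternatives. No gene called by the main limma fit reversed its direction in any of them, in the comparison that called it. Grin1, called with exercise in wild type under array weights alone, changed sign in 2 of 29. In SVE against nSVE in wild type, where 2 of the 30 genes were called, the count was 1 with no filter, 5 by DESeq2, 9 with array weights, 1 with the share of genes at 0 as a covariate, 0 after the GC and length correction, 0 with the rRNA share as a covariate (chosen after seeing the data) and 8 in a fit of the groups compared. The 9 with array weights were Gria1, Grik4, Grik5, Grin1, Grin2b, Grin2c, Shank1, Shank2 and Shank3, and the 8 were the same genes without Grin1. The share of all genes called moved too, from 1.28% to 0.598% with no filter, 4% by DESeq2 and 9.31% with array weights. It was 6.61% in the groups compared and 0.413% with the share of genes at 0. After the GC correction it was 0.363%, and with the rRNA share 0.0165%. Between genotypes under nSVE the count was 1, where 0.611% of all genes were called. It became 0 with array weights (0.413% of all genes) and with the share of genes at 0 (0.088%). It was also 0 after the GC correction (1.13%) and in a fit of the groups compared (0.292%). Under SVE, the count of 1 was 2 with a pseudocount of 10, 4 by DESeq2 (2.66% of all genes), 2 with array weights, and 0 with the share of genes at 0, in a fit of the groups compared, and without library 3 of each Vipr2-/- group. Averaged over conditions, the count of 3 was 1 with no filter, 6 by DESeq2 (4.54% of all genes), and 0 with the share of genes at 0 and without library 3 of each Vipr2-/- group. The interaction count of 0 became 1 by DESeq2 (0.963% of all genes). Exercise in Vipr2-/- SCN gave 0 throughout. Leaving out 1 library at a time gave 1 to 2 genes for exercise in wild type, 0 to 2 for genotype under nSVE, 0 to 7 under SVE and 0 to 6 averaged, the highest values of the last pair without Vipr2-/- SVE library 2 where 6.12% and 5.62% of all genes were called, and that under nSVE without Vipr2-/- nSVE library 2, where 1.39% were. The cause was not tested.

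No label states that a shared replicate number means a shared litter, batch or day. Among 19 same-numbered pairs of libraries, residuals correlated at -0.05 to 0.12, with 1 pair over 0.1, and for 9 of 14 libraries the best partner carried their own number. With the replicate number as a block, the count was 1 for exercise in wild type, where 0.754% of all genes were called. It was 0 for genotype under nSVE (0.27%) and 0 averaged (0.38%). With block and GC correction together, the count was 0 for exercise in wild type (0.105%) and 0 under nSVE (0.594%). Averaged over conditions, the fit with both called 4 genes, Grin2c, Shank1, Shank2 and Shank3, and 1.33% of all genes. The count under SVE stayed at 1 with block alone and with both. Depth limits the genes with few reads: Grin2a had 4, Homer3 28, Grm8 40 and Grm2 52 reads in its lowest library, and a difference in these was not detectable where it lay within the spread between libraries.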

Other observations

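The make-up of the receptor classes, as each gene's share of its class's level per kilobase of exon, varied between groups; these shares were not tested. Within the NMDA class Grin2b took 9.59% ± 1.32 (SD, n = 4) in wild-type nSVE and 5.77% ± 0.952 (n = 4) in wild-type SVE, and Grin2c 32.6% ± 2.96 and 37.1% ± 1.69. Grin3a took 5.57% ± 0.407 in wild-type SVE and 9.58% ± 2.39 (n = 3) in Vipr2-/- nSVE. Among the kainate genes, Grik3 took 23.2% ± 1.62 in wild-type nSVE and 18.7% ± 0.585 in wild-type SVE. In the scaffold class, Shank1 took 24.9% ± 0.305 and 31.9% ± 2.44 in these groups and Dlg4 42.3% ± 0.227 and 37% ± 1.27. In Vipr2-/- nSVE and SVE the Shank1 share was 24.2% ± 1.29 and 23.9% ± 3.35.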
